A study of Drosophila melanogaster with 4 samples.

Results

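Regions enriched for trimethylation of histone H3 at lysine 27 (H3K27me3) were examined at 2 loci of the Drosophila melanogaster genome that carry T-box genes, the X-linked gene bi (also called omb) and the neighbouring pair H15 and mid on arm 2L. The regions were all those of 3 deposited lists that overlapped X from 4250000 to 4440000 or 2L from 5340000 to 5530000 in Release 5 of the fly genome. They numbered 10 of the 5224 regions in the lists. The list of replicate 1 gave 3 of its 1486 regions, that of replicate 2 gave 3 of 1459, and the list deposited for the series as a whole, called the series list, gave 4 of 2279. The loci were selected on the measured widths of these regions, each holding a domain of over 150 kb, so their widths and scores are given as a description, with no test.

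The chromatin came from whole embryos of the wild-type strain Oregon-R at 14 to 16 h of development, cross-linked with formaldehyde and precipitated with an antibody to H3K27me3. There were 2 ChIP libraries and 2 inputs, numbered alike, and no other genotype, stage or treatment. The inputs entered only through the authors' calls. Whole embryos mix many cell types, so a called region does not show in which cells the mark was present. The authors gave each region a score, whose scale no source used here states, and how deeply the libraries were sequenced is likewise unknown.

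H3K27me3 is written by Polycomb repressive complex PRC2 and marks genes of development kept silent by the Polycomb group, often as broad domains that run past the gene itself. T-box genes encode transcription factors that bind DNA through the conserved T-box domain and act in the patterning of embryos and appendages. The gene bi belongs to the Tbx2 group. It is needed for the optic lobes, and in the wing disc it is a target of the Decapentaplegic signal. H15 and mid, also known as neuromancer 1 and neuromancer 2, belong to the Tbx20 group. They act in heart progenitors, in the segments of the embryonic epidermis and in the ventral side of the leg.

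The gene table used here is of Release 6, so its coordinates were not set against the regions, and it was used for gene order alone. In that order the nearest protein-coding genes of bi (CG3578) are CG3626, norpA and CG12693 on the side of lower coordinates, and CG3556, rb and CHOp24 on the other. The gene norpA encodes the phospholipase C of phototransduction, and rb a subunit of the AP-3 adaptor complex. A long non-coding RNA gene, lncRNA:CR32773, overlaps bi. H15 (CG6604) and mid (CG6634) have no protein-coding gene between them. Only 4 long non-coding RNA genes and 1 snoRNA gene overlap them or lie between them. The protein-coding neighbours of the pair are nompC, Acsf2 and fusl on the side of lower coordinates, and CG14020, CG7382 and cl on the other. Of these, nompC encodes a mechanosensory channel. Which of these neighbours lie under the regions was not examined. The other 5 T-box genes of the table, byn, Doc1, Doc2, Doc3 and org-1, were not placed on the regions for the same reason.

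The bi locus was called as 1 unbroken region in each replicate. In replicate 1 it ran from 4266788 to 4424604, a width of 157.8 kb, with a score of 2.30. In replicate 2 it ran from 4266780 to 4424575, again 157.8 kb, with a score of 2.35. The series list gave 4266715 to 4424629 and a score of 2.33. The replicate starts lay 8 bp apart and the ends 29 bp apart. Across the replicates the score was 2.33 ± 0.036 (SD, n = 2). As called, this was the widest region of X in both replicates, of 209 regions of the arm in replicate 1 and 198 in replicate 2. In replicate 2 another region of X, of 152.7 kb from 7401063 to 7553761, had neighbours 0.4 and 0.389 kb away. No rank with such gaps joined is given here. In the series list the bi region ranked 2nd of 361 by width, behind a region of 159.4 kb from 7394336 to 7553686. The bi region alone held 6.99% of the called bases of X in replicate 1 and 6.76% in replicate 2.

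The H15 and mid locus was called as 2 regions in all 3 lists, so the domain was not unbroken, although the locus was chosen as 1 domain. The longer region ran from 5366350 to 5517059 in replicate 1, a width of 150.7 kb, with a score of 2.34. In replicate 2 it ran from 5366157 to 5517452, a width of 151.3 kb, with a score of 2.37. The series list gave 5366120 to 5517423 and a score of 2.35. Its score was 2.36 ± 0.022 (SD, n = 2). It was the second widest region of 2L in both replicates, behind a stretch of 178 kb from 11316994 to 11495123, and held 4.94% and 4.76% of the called bases of the arm. In the series list it ranked 3rd of 368 by width.

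A shorter region lay just before it on the side of lower coordinates. It covered 5354454 to 5366005 in replicate 1 (11.6 kb, score 1.21), 5354302 to 5365991 in replicate 2 (11.7 kb, score 1.32) and 5354024 to 5366031 in the series list (12.0 kb, score 1.23). Its score was lower than that of its long neighbour by 1.13 in replicate 1, 1.06 in replicate 2 and 1.12 in the series list. Among regions of 10 to 15 kb it was nevertheless on the high side, at rank 25 of 81 in replicate 1 and 19 of 80 in replicate 2, where the median scores were 0.908 and 0.926.

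The break between the shorter and the longer region measured 344 bp in replicate 1, 165 bp in replicate 2 and 88 bp in the series list. The 88 bp of the series list, 5366032 to 5366119, were uncalled in all 3 lists. On the side of the short region the replicates put the break within 14 bp of each other, and on the side of the long region within 193 bp. Such breaks were common at long regions. Of the regions of at least 100 kb, 11 of 22 in replicate 1 and 14 of 23 in replicate 2 had a neighbour less than 1 kb away. The bi region was not one of them in either replicate. In the series list 18 of 27 had such a neighbour, and bi was among them, with a region of 1.48 kb 102 bp away. With the break bridged, the H15 and mid domain measured 162.6 kb in the first list and 163.2 kb in the second.

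**Figure D1:**
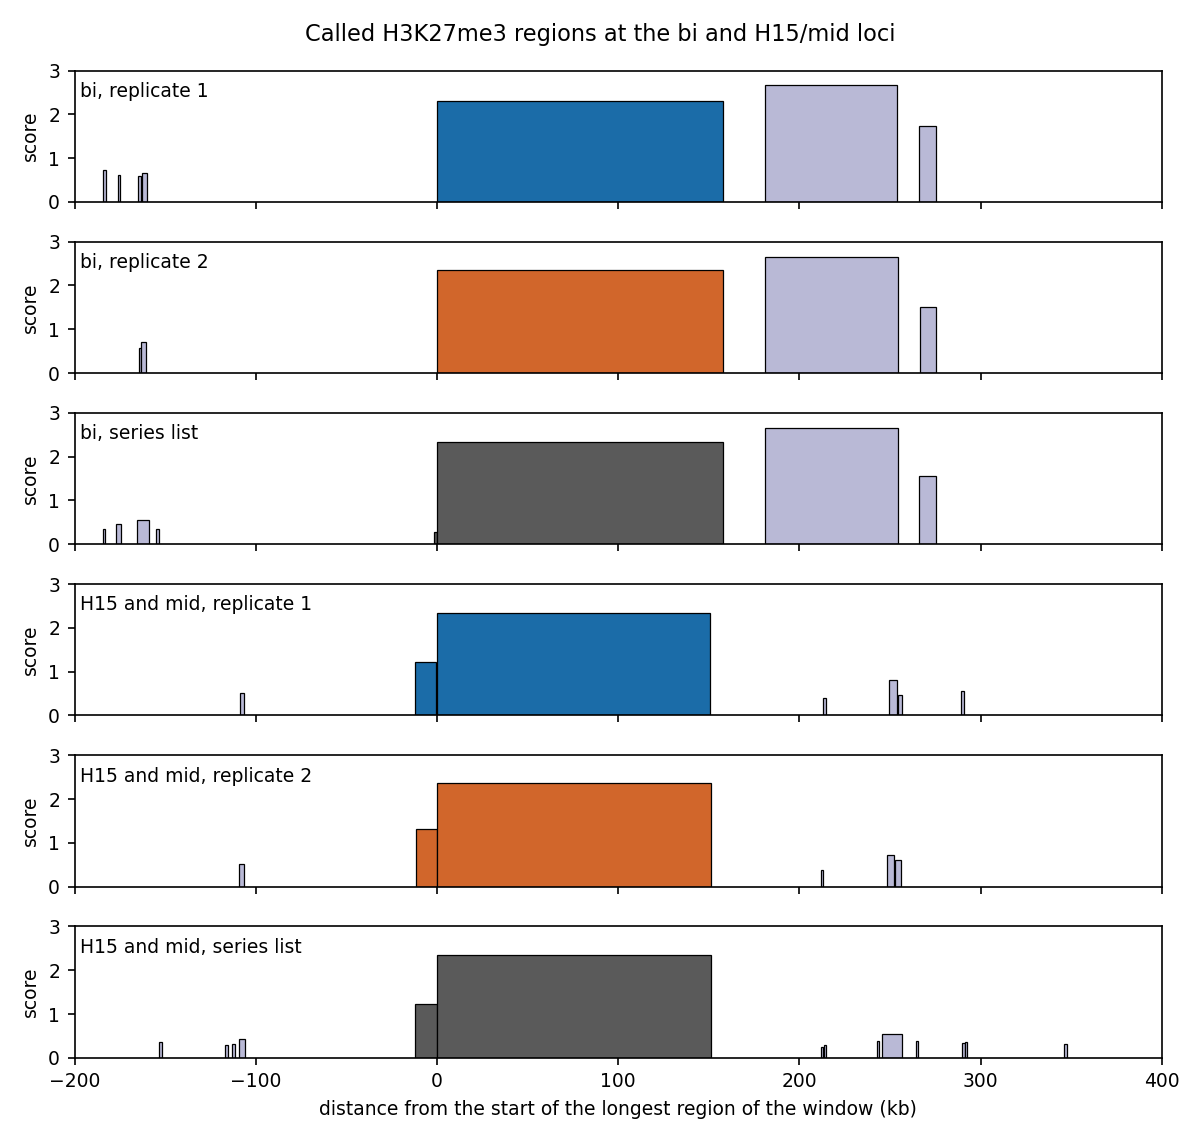
Called regions at both loci in the 3 lists. Each box is a region, placed by its distance in kb from the start of the longest region of the window. The box has the width of the region in kb and the authors' score as its height. Coloured boxes overlap the windows of the rule and pale boxes lie outside. The bi region is unbroken in the replicates and is followed by a domain with a higher score, while a shorter, lower region adjoins the H15 and mid region.

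Set against each other, the loci differed little in score. The score at bi minus that of the longer H15 and mid region was -0.04 in replicate 1, -0.02 in replicate 2 and -0.03 in the series list. Each list thus put H15 and mid slightly higher. The score itself differed between replicates by 0.051 at bi and by 0.031 at H15 and mid, and was higher in replicate 2 at both. The gap between the loci in replicate 1 was larger than the second of these differences but not the first. The sign rested on the break. With both pieces at H15 and mid joined and weighted by length, their score was 2.26 in replicate 1 and 2.30 in replicate 2, and bi was higher by 0.041 and 0.056.

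The order by width turned in the same way. The bi region was 7.11 kb wider than the longer H15 and mid region in replicate 1 and 6.50 kb wider in replicate 2. Against the bridged H15 and mid domain it was narrower, and the difference, bi minus H15 and mid, was -4.79 kb and -5.36 kb. These differences exceeded the spread between replicates, since the width of the bi region differed by 0.021 kb and that of the longer H15 and mid region by 0.586 kb. With 2 libraries of 1 condition none of these differences was tested.

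Within the lists, both long regions ranked higher by width than by score. By width, bi was 5th in each replicate and the longer H15 and mid region 6th in replicate 1 and 7th in replicate 2. By score, bi was 73rd of 1486 in replicate 1 and 62nd of 1459 in replicate 2, and H15 and mid 64th and 59th. The median scores of the lists were 0.619 and 0.602. Most regions that scored higher were narrower, as the plot of width against score shows. Of the 72 regions with a higher score than bi in replicate 1, 66 were under 100 kb, and of the 61 in replicate 2, 57 were. In the whole lists only 22 of 1486 and 23 of 1459 regions reached 100 kb. Regions under 100 kb thus made up no larger a share of the higher scorers than of the lists. Among the regions of at least 100 kb, bi ranked 7th of 22 by score in replicate 1 and 5th of 23 in replicate 2. The longer H15 and mid region, without its short neighbour, ranked 5th and 4th. The median scores of these long regions were 2.07 and 2.05.

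**Figure D2:**
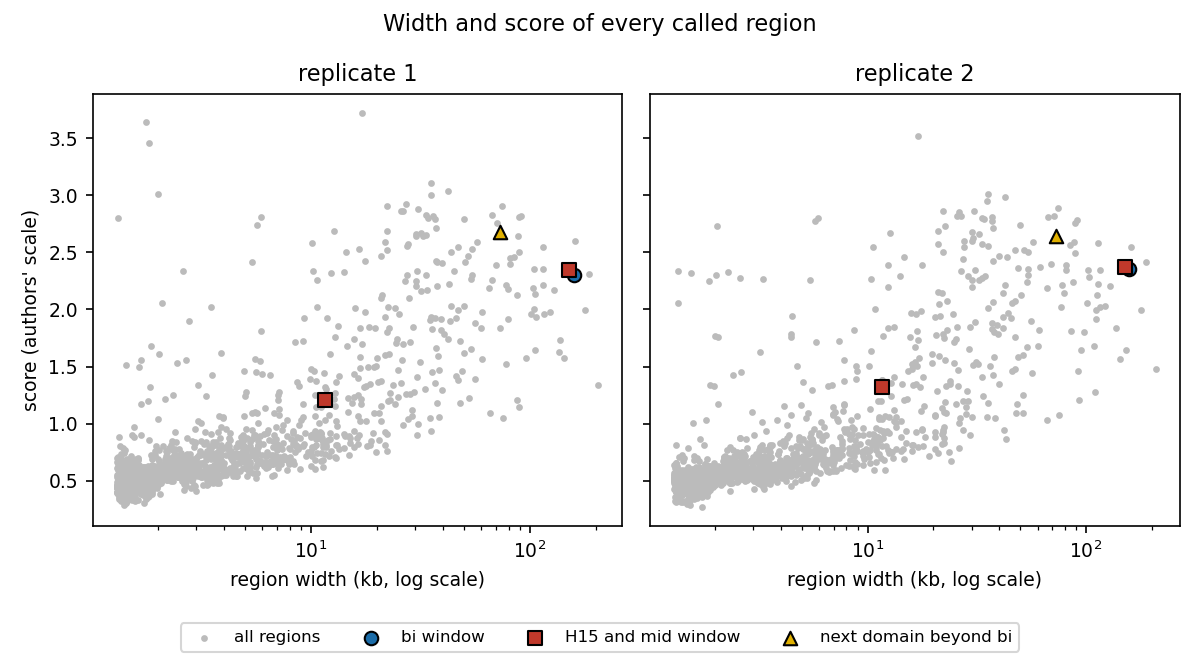
Width in kb (log scale) against the authors' score for every region of replicate 1 (left) and replicate 2 (right). Grey points are all regions, circles the bi region, squares the H15 and mid regions and triangles the domain beyond bi. The long regions of the T-box loci nearly coincide in both panels, at scores of 2.30 to 2.37, below many narrower regions.

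There were 22 stretches of at least 100 kb called in both replicates, of which 6 were on X and 6 on 2L, each arm's count including its T-box locus. On X the 5 others shared 105 to 135 kb between the replicates, and the means of their replicate scores ran from 1.64 to 2.22. The longest of these was 135.4 kb in replicate 1, 152.7 kb in replicate 2 and 159.4 kb in the series list. It was thus wider than the longer H15 and mid region in replicate 2, and wider than bi in the series list. On 2L the 5 others spanned 104 to 178 kb, with mean scores from 1.57 to 2.01. Both T-box loci thus stood above the other stretches of at least 100 kb of their arm by score. That did not hold among all regions of the arm, where narrower regions scored higher. There bi ranked 12th of 209 by score in replicate 1 and 10th of 198 in replicate 2. The longer H15 and mid region ranked 12th of 241 and 11th of 243. Nor did the loci lead the stretches of all arms, where they were 7th (bi) and 4th (H15 and mid) of 22 by mean score, behind stretches on 3L, 2R and 3R. The 4th place is of the longer H15 and mid region alone. Joined with its short region, H15 and mid had a mean score of 2.28, below the 2.33 of bi, and no rank is given for it. The stretch on 2L wider than H15 and mid, at 178 kb, had scores of 2.00 and 1.99. Just outside the limit of 150 kb in the replicates lay another 2L stretch, of 143 kb from 15303781 to 15446874, with lower scores of 1.57 and 1.56. The series list gave it 152.6 kb.

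**Figure D3:**
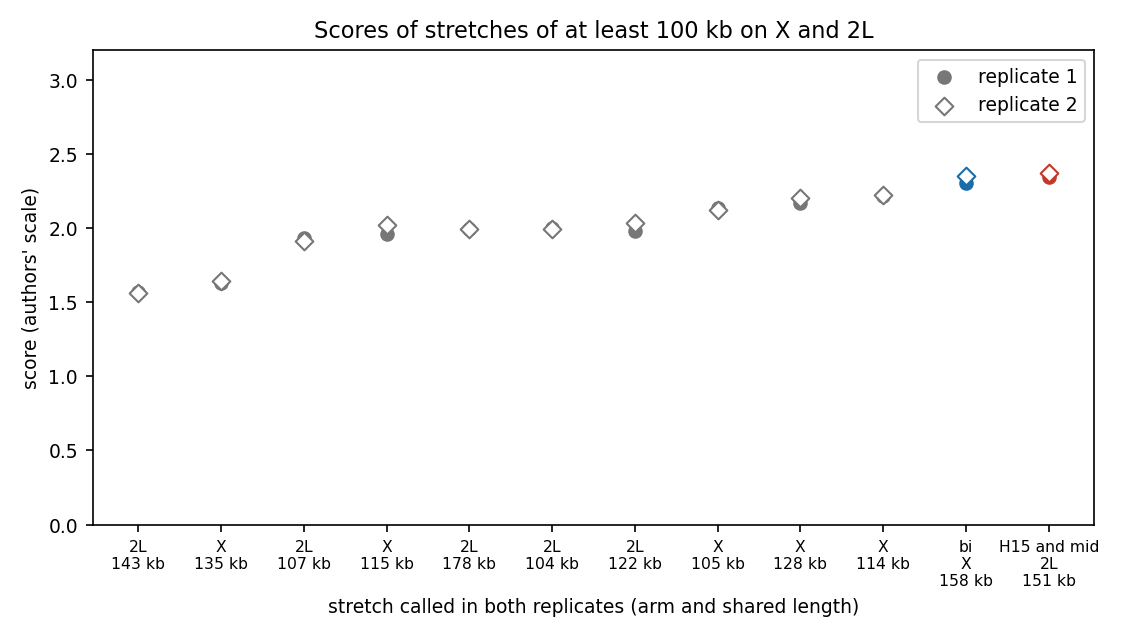
Authors' scores of the 12 stretches of at least 100 kb called in both replicates on X and 2L, ordered by mean score. Filled circles are replicate 1 and open diamonds replicate 2, and labels give the arm and the shared length. The bi and H15 and mid stretches, at 2.30 to 2.37, lie at the upper end and above the 10 others, which lie between 1.56 and 2.22.

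The likeness of the loci was also measured, by the distance of the percentile ranks of width and score in both replicates among 190 pairs of regions of at least 10 kb that matched one to one. Among these pairs the region nearest to bi was the longer H15 and mid region, and the reverse held too, at a rank distance of 3.29. Regions without a one-to-one match were left out. These included a 3R stretch of 185.8 kb with scores of 2.31 and 2.42, whose distance was not measured. Next for both among the pairs came a region of 3R, from 9670106 to 9784818, which was 114.7 kb wide with scores of 2.35 and 2.35. Its distance was 6.40 from bi and 4.62 from H15 and mid. Since both loci were chosen for their width, their closeness is a description of that choice as much as of the loci.

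The replicates gave nearly the same outline at both loci. All 3 regions of replicate 1 and all 3 of replicate 2 overlapped a region of the other replicate. Over all regions the share with such an overlap was 81.3% in replicate 1 and 75.5% in replicate 2, and for regions of at least 10 kb it was 100% in both, so the match of these broad members equals their background. In bases the agreement was close. At bi, 157.788 of 157.825 kb called in either replicate were called in both, which left 37 bp called in 1 replicate alone. At H15 and mid it was 162.248 of 163.000 kb, with 14 bp in replicate 1 alone and 738 bp in replicate 2 alone. The shared parts were 99.98% and 99.54%, against 86.4% over all called bases. The last value includes the many narrow regions. No share of bases was computed for broad regions alone, so these values do not set the loci apart from other broad regions.

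Of the 6 ends of the 3 regions seen in both replicates, 5 differed by at most 200 bp, against 72.4% of the 380 ends of the one-to-one broad pairs. The median of those 380 was 94.5 bp. Both ends of bi, at 8 and 29 bp, were below this median, and 5.00% and 18.4% of the 380 ends were placed closer. The ends of the longer H15 and mid region, at 193 and 393 bp, were above it. For the larger of its end differences, bi had the smallest value of the 22 long stretches and H15 and mid the 9th smallest. Of the outer ends at H15 and mid, the start of the short region differed by 152 bp and the end of the long region by 393 bp.

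**Figure D4:**
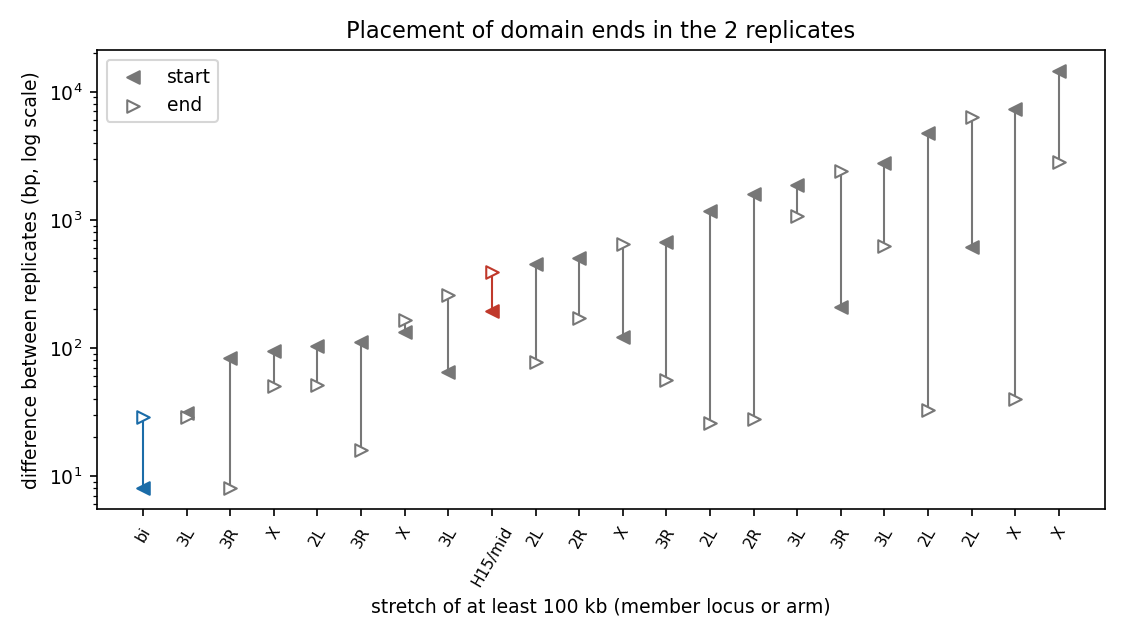
Distance in bp (log scale) between the ends placed in replicate 1 and replicate 2 for the 22 stretches of at least 100 kb, ordered by the larger of both distances. Filled triangles are starts and open triangles ends, and labels give the T-box locus or the arm. For bi the distances are 8 and 29 bp and for H15 and mid 193 and 393 bp, and the largest of all is 14426 bp.

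The surroundings of the loci differed. On the side of lower coordinates, bi was preceded by uncalled sequence of 160.2 kb in replicate 1 and 160.6 kb in replicate 2. The first regions beyond it, near 4.10 Mb, were narrow and low, the nearest being 4104080 to 4106557 (score 0.666) in replicate 1 and 4103586 to 4106196 (score 0.716) in replicate 2. Gaps of more than 150 kb were not rare, with 223 of the 1464 gaps on the major arms in replicate 1 and 231 of 1436 in replicate 2.

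On the side of higher coordinates a domain with a higher score followed bi after a short gap. It ran from 4447888 to 4520857 in replicate 1 (73.0 kb, score 2.68) and from 4447884 to 4521038 in replicate 2 (73.2 kb, score 2.64), so it began outside the window of the rule. The uncalled gap between it and bi measured 23.283 kb in replicate 1, 23.308 kb in replicate 2 and 23.183 kb in the series list. Its score exceeded that of bi by 0.374 and 0.286, more than the replicates differed at either domain, and was 6th among the regions of at least 50 kb in each replicate, of 61 and 63. After a further 11.9 and 12.2 kb came a region of 9.19 kb (score 1.73) and 8.82 kb (score 1.50). From the start of bi, these 3 regions spanned 275 kb, of which 87.2% was called in replicate 1 and 87.1% in replicate 2.

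A neighbour of this size was uncommon at long regions under the limits used. Of the regions of at least 100 kb, only 2 in each replicate had a region of at least 50 kb within 25 kb, bi and a 137 kb region of 3R. These limits were set after the bi locus had been seen. The limit of 25 kb lies just above the gap at bi, 23.283 and 23.308 kb, and no count at a wider limit is given. The gene under the neighbouring domain was not identified, because the gene table is of another release.

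H15 and mid had no such broad domain after it. Before its short region, 94.9 kb in replicate 1 and 94.7 kb in replicate 2 were uncalled, up to a narrow region at 5257557 to 5259571 (score 0.520) and 5256887 to 5259616 (score 0.517). After the long region, 62.4 and 60.4 kb were uncalled. Over the 200 kb that follow the long region, 4.85% of the sequence was called in replicate 1, 4.20% in replicate 2 and 10.2% in the series list. Over the same distance after bi it was 41.1%, 41.0% and 41.2%. On the side of lower coordinates the order was the reverse, because the short region adjoins H15 and mid. There 6.78%, 7.21% and 9.54% of the 200 kb before the long H15 and mid region were called, against 3.88%, 1.99% and 6.89% before bi. The number of regions within 200 kb was 6 at each long region in replicate 1, 5 at H15 and mid against 4 at bi in replicate 2, and 13 against 7 in the series list.

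The regions around H15 and mid were narrow and low in score. Within 200 kb of its window, replicate 1 had 5 further regions and replicate 2 had 4, none wider than 4.88 kb or with a score above 0.801, and 3 of each overlapped the other replicate, counts too small to be told from the shares over all regions, 81.3% and 75.5%. The nearest region beyond the long domain was not the same in the replicates. It lay at 5579499 to 5581061 (score 0.389) in replicate 1 and at 5577873 to 5579256 (score 0.387) in replicate 2, which do not overlap, and the series list held a region at each place. Around bi, 4 of the 6 regions of replicate 1 and all 4 of replicate 2 had a match, which likewise do not stand apart from 81.3% and 75.5%.

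The series list, which cannot be taken as independent of the replicates, added little at either locus. It held 1 region at bi that overlapped neither replicate, 4265136 to 4266612, with a width of 1477 bp. This region ended 102 bp before the long domain and had a score of 0.292, and 9.13% of the regions of the series list had a lower one. Its other 3 regions here met a call in each replicate, as did 37.0% of its regions overall and 100% of those of at least 10 kb, a class that holds all 3. Bases called in the series list alone numbered 1567 at bi and 341 at H15 and mid.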

How the data were processed

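The authors deposited 1 list of enriched regions per ChIP library and 1 for the series, in GFF3 form with 1-based starts and ends and a score per region, per the file headers. By label, the ChIP libraries and the inputs carry matching numbers. That each ChIP list was called against the input with its number is inferred from these numbers. No source used here gives the caller, its threshold, the scale of the deposited score or the making of the series list. The submitters' processing notes name Bowtie 0.12.7. Sequence lengths in the headers match Release 5. The gene table is of Release 6 and served for names and order only. No sequence was used here, so planned protein and promoter comparisons were not run.

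Members and lists were chosen with earlier results of these data known. Named regions were all in the windows, the nearest beyond them, the stretches of at least 100 kb called in both replicates on X or 2L, and regions nearest in rank of width and score. The 3R regions of 137 kb and 185.8 kb were named after their values were seen. Overlap meant at least 1 bp. Regions are not replicates, and replicates are separate samples by label only, so the spread between them may be technical. Values are per replicate, with no test and no interval that needs depth. Alternatives joined regions, widened windows, raised the score limit, used the series list or left out a replicate. Python 3.11.15, numpy 2.4.6, pandas 2.3.3, scipy 1.17.1 and matplotlib 3.10.9 were used, and the code for overlaps was tested on simulated lists.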

Additional observations from a re-analysis of the deposited data

How the results depend on the processing

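Joining regions less than 1 kb or less than 5 kb apart, which gave equal values, left bi as it was and turned H15 and mid into 1 region of 162.8785 kb with a score of 2.28, with 99.67% of its bases shared. The score difference, bi minus H15 and mid, then reversed from -0.03 to 0.048. Both changes follow from the joined break. Widening the windows by 50 kb gave 2 regions at bi, since it took in the next domain, and 3 at H15 and mid, and shared bases of 99.979% at bi and 98.40% at H15 and mid. The series list gave 157.915 kb and 2 regions at bi. With 1 replicate left out, the width was 157.796 to 157.817 kb at bi and 150.71 to 151.296 kb at H15 and mid, the scores 2.30 to 2.35 and 2.34 to 2.37, their difference -0.04 to -0.02, and the regions stayed at 1 and 2. Over all regions, asking for an overlap of 50% of both regions lowered the matched share of replicate 1 from 81.3% to 59.1%, and that of replicate 2 from 75.5% to 60.2%. With 2 replicates, leaving one out cannot move a mean beyond their spread, so those values say nothing about stability. No paired analysis was possible because only 1 group, the ChIP libraries, has region lists here, and the inputs carrying matching numbers enter those lists only through the calls. Depth is unknown, and what it limits was not measured.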
